A study of Mus musculus with 15 samples.

Results

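The 9 genes described here, Olig1, Olig2, Pdgfra, Cspg4, Sox10, Sox8, Nkx2-2, Gpr17 and Mbp, mark successive steps of the oligodendrocyte lineage, the glial cells that wrap axons in myelin. They were named as markers of the lineage, with earlier results of these data known, and the counts of their annotated transcripts were summed per gene. They are 9 of 34989 genes with an entry in the count table, and all 9 were among the 15139 genes that passed the filter on low counts. RNA was measured in 15 libraries of wild type mouse neural progenitor cells, dividing precursors of neurons and glia that were kept in medium holding FGF2, EGF and heparin. A plasmid with EGFP and an shRNA (a hairpin transcript that knocks down RNAs it matches) was put into the cells, and the fluorescent cells were sorted after 3 days. There were 5 groups of 3 libraries. The shControl group received the control hairpin, whose target the labels do not name. The shLINE_Orf1, shLINE_Orf2 and shLINE_MdV_I groups each received a hairpin against LINE-1, a family of retrotransposons that copies itself through RNA. The shLINE_Orf1+LINE-1 group received the Orf1 hairpin with a full-length LINE-1. Per the series' design, the hairpins aimed at young or at old LINE-1 copies. By that design the full-length element was paired with a hairpin for young copies, so the Orf1 hairpin is one for young copies. The labels do not say whether the Orf2 and MdV_I hairpins target young or old copies. Every group, shControl included, carried EGFP and was sorted for it, and the labels used here give neither the age of the animals nor the tissue the cells came from. Nothing in the labels says that replicates came from separate cultures, so the p-values speak only of the spread among these libraries, and that may be technical.

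Oligodendrocytes arise from progenitors in steps. The basic helix-loop-helix factors Olig1 and Olig2 and the homeodomain factor Nkx2-2 specify the lineage, and oligodendrocyte precursor cells then carry the growth factor receptor Pdgfra and the proteoglycan Cspg4 (NG2) on their surface. Sox8 and Sox10, related HMG-box factors, act in precursors and later in myelin gene transcription, Gpr17 is a receptor of committed precursors that is lost again as cells mature, and Mbp encodes a main protein of compact myelin. Neural progenitors grown with FGF2 are known to express Olig2, so part of the list is not restricted to committed cells.

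Levels differed widely between the genes. Per transcript length, on the TPM scale (counts per kilobase of transcript, scaled to the same total in each library), the mean level in the 3 shControl libraries was 1814 ± 185 (SD) for Olig1, 519 ± 113 for Olig2 and 136 ± 21.1 for Sox8. It was 33.5 ± 4.07 for Nkx2-2 and 21.7 ± 4.58 for Cspg4. It was 4.49 ± 0.990 for Pdgfra, 2.93 ± 0.530 for Sox10, 1.85 ± 1.43 for Mbp and 0.987 ± 0.440 for Gpr17. The specification factors and Sox8 were thus the most abundant genes of the set, and the genes of committed and myelinating cells the least. Neighbours in this order had ranges that did not overlap, except Sox10 with Mbp and Mbp with Gpr17. On the same scale, the mean level over all libraries placed Olig1 at percentile 99.7 of all genes tested and Gpr17 at percentile 20.3.

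**Figure D1:**
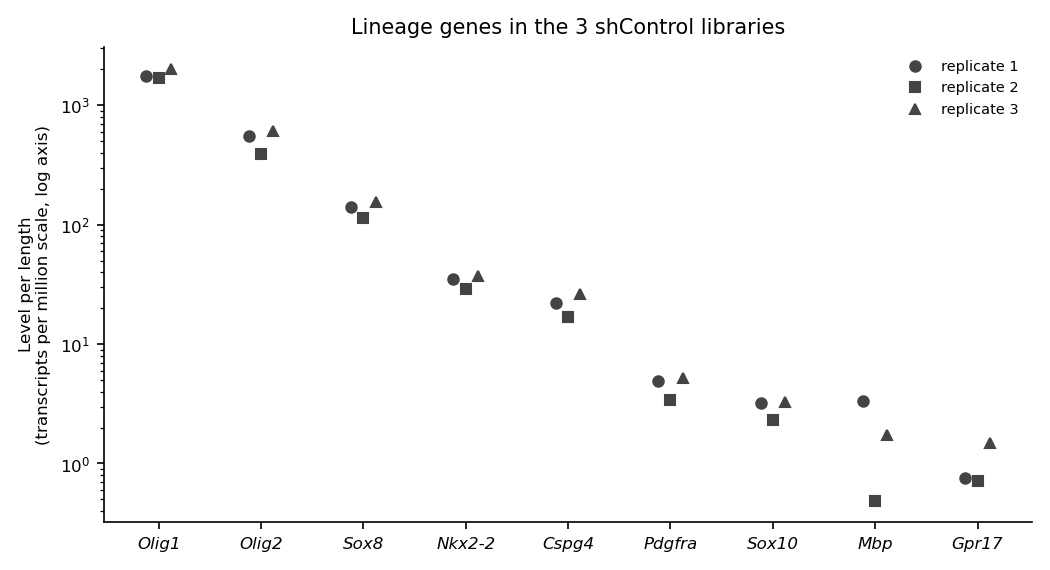
Level per transcript length of each gene (vertical log axis, TPM scale) in the 3 shControl libraries, 1 point per library with the symbol giving the replicate. Levels run from a mean of 1814 for Olig1 to 0.987 for Gpr17.

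Counts assigned to genes ran from 39209074 to 51075910 per library, and the 9 genes together took from 0.188% to 0.380% of them. On the first principal component of all genes tested, which held 23.9% of the variance, shLINE_Orf1 replicate 1 scored 75.9 and shControl replicate 2 scored 24.3, and the other libraries lay between -18.9 and 4.76. The share of mitochondrial counts was 3.61% and 2.02% in those libraries and 1.36% to 1.97% in the others. In shLINE_Orf1 replicate 1, 8 of the 9 genes were at their lowest level of all libraries, so results are also given without both libraries. The share of all genes at their lowest there was not counted, so this may not be particular to the 9. A number at the end of the library descriptions, whose meaning the labels do not give, was 12 for shLINE_Orf1 replicate 1 and shLINE_MdV_I replicates 2 and 3, and 1 for all others. All 10 neural progenitor markers checked were expressed, at 1747 to 2559 CPM (counts scaled for library size) summed, led by Vim and Nes. Microglial Aif1, C1qa and C1qb, neural crest Foxd3 and ependymal Pifo and Sntn were at 0 in all 15 libraries. Other genes of these lists were not. Neural crest and Schwann cell markers summed to 606 to 930 CPM, microglial markers to 30.3 to 41.0 and ependymal markers to 9.94 to 15.4. Pericyte and fibroblast markers summed to at most 2.04 CPM, and endothelial markers to 22.9 to 49.1, of which Pecam1 held a mean of 33.0. Astrocyte markers summed to 3151 to 4456 CPM, led by Slc1a3, and neuronal markers to 750 to 873, led by Gap43 and Map2. LINE-1 transcripts and EGFP were not analysed here.

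Pdgfra, the receptor for platelet-derived growth factor that keeps precursors dividing, had its lowest mean with the Orf1 hairpin and its highest with the MdV_I hairpin. The gene lies on the plus strand of chromosome 5 (GRCm38, chr5:75152292-75198215). Its level in the 3 replicates was 16.4, 12.8 and 18.2 CPM in shControl, 5.57, 11.3 and 11.5 in shLINE_Orf1 and 11.5, 10.3 and 10.4 in shLINE_Orf1+LINE-1. It was 20.7, 19.7 and 18.0 CPM in shLINE_Orf2 and 26.9, 21.3 and 15.6 in shLINE_MdV_I. All 6 libraries with the Orf1 hairpin, with or without the added LINE-1, lay below all 9 others. In bulk RNA, fewer cells of a type and less RNA per cell cannot be told apart. The F test over the 5 groups (quasi-likelihood test of edgeR, p adjusted by Benjamini-Hochberg and called under 0.05) just missed the threshold for Pdgfra, with an adjusted p of 0.0510. In shLINE_MdV_I against shLINE_Orf1 the log2 fold change was 1.17 ± 0.24 (SE), with an adjusted p of 0.0376 by the same test. Most of its counts were assigned to transcript Pdgfra-201, with a mean of 75.6% (53.7% to 93.0% over libraries), and 20.4% (2.67% to 38.6%) to Pdgfra-202.

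Cspg4, the NG2 proteoglycan of precursors and pericytes (plus strand, chr9:56865033-56899870), had 92.1, 71.9 and 107 CPM in shControl. It had 32.5, 80.96 and 66.3 CPM in shLINE_Orf1 and 67.7, 74.5 and 61.5 in shLINE_Orf1+LINE-1. It had 107, 88.2 and 83.5 CPM in shLINE_Orf2 and 108, 92.2 and 85.0 in shLINE_MdV_I. The libraries with the Orf1 hairpin lay below those with the Orf2 and MdV_I hairpins, but overlapped shControl, and 1 of them, shLINE_Orf1 replicate 1, lay far below the rest. Cspg4 was not called over the 5 groups (adjusted p = 0.411, edgeR's quasi-likelihood test) or in any pair of groups. Pericyte and fibroblast markers summed to at most 2.04 CPM in any library, and which cells made the Cspg4 RNA was not tested.

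Sox10 (minus strand, chr15:79154908-79165240) was higher with the Orf2 and MdV_I hairpins than in the other groups. Its level was 4.64, 4.23 and 4.94 CPM in shControl, 2.76, 4.71 and 2.85 in shLINE_Orf1 and 3.65, 3.10 and 3.08 in shLINE_Orf1+LINE-1. It was 7.53, 7.72 and 5.71 CPM in shLINE_Orf2 and 8.41, 7.12 and 5.34 in shLINE_MdV_I. All 6 libraries with the Orf2 or MdV_I hairpin lay above all 9 others. The difference over the 5 groups was called, with an adjusted p of 0.0263 in edgeR's quasi-likelihood test.

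Gpr17 (minus strand, chr18:31942997-31949636) had its highest mean with the MdV_I hairpin and its lowest with the Orf1 hairpin. Its level was 2.10, 2.48 and 4.29 CPM in shControl, 1.27, 1.83 and 1.84 in shLINE_Orf1 and 2.16, 3.17 and 1.57 in shLINE_Orf1+LINE-1. It was 3.71, 3.58 and 4.36 CPM in shLINE_Orf2 and 5.95, 5.07 and 4.62 in shLINE_MdV_I. The 3 shLINE_MdV_I libraries lay above the 12 others, and the 3 shLINE_Orf1 libraries lay below all shControl libraries but overlapped shLINE_Orf1+LINE-1. The difference over the 5 groups was called, with an adjusted p of 0.0372 in edgeR's quasi-likelihood test, on 50 to 298 counts per library. In its exons, 188 of 5195 bases (3.62%) overlap Lims2 on the opposite strand, and since the labels do not say that strand was kept, reads there cannot be told apart between the genes. Lims2 had a mean of 70.4 counts per library and was itself called higher in shLINE_MdV_I against shLINE_Orf1 (log2 fold change 1.26 ± 0.27, adjusted p = 0.0444 in edgeR's quasi-likelihood test), the pair and direction in which Gpr17 was called.

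Sox10 and Gpr17 were thus 2 of 9 genes called over the 5 groups, against 143 of 15139 genes tested (0.945%), and 4 of the 9 had an unadjusted p under 0.05, against 1813 of all genes (12%). Both calls are near the threshold: when each of the 15 libraries was left out in turn, Sox10 was called in 7 of 15 fits (adjusted p 0.00601 to 0.0784) and Gpr17 in 6 of 15 (0.0174 to 0.146). Without the 2 libraries that stand apart, Pdgfra (adjusted p = 0.00168), Cspg4 (0.0289), Sox10 (0.00620) and Gpr17 (0.0168) were all called, where 928 of 15404 genes were.

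**Figure D2:**
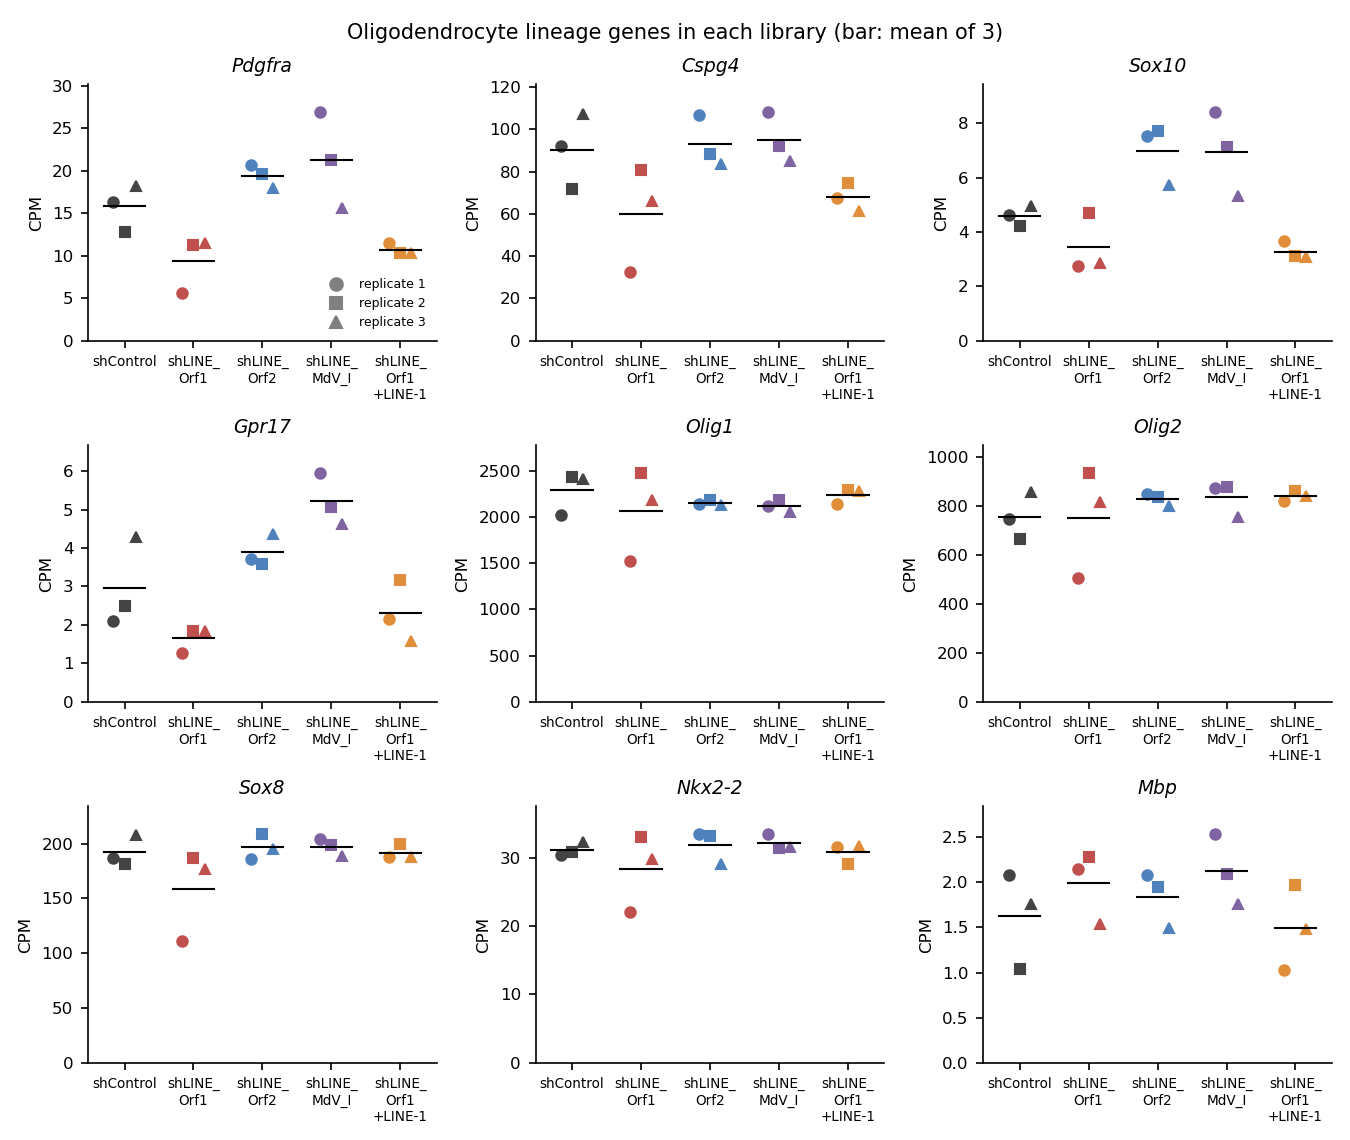
Level of each gene in CPM (vertical axes, linear from 0) in every library of the 5 groups, with the mean of 3 as a bar and the symbol giving the replicate number. Pdgfra, Cspg4, Sox10 and Gpr17 are lower with the Orf1 hairpin than with the Orf2 and MdV_I hairpins, and shLINE_Orf1 replicate 1 is the lowest library for 8 of the 9 genes.

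Of the other 5 genes none was called over the 5 groups. The group means of Sox8 and Nkx2-2 had the same order as those of Pdgfra, Cspg4 and Gpr17, with shLINE_Orf1 lowest, then shLINE_Orf1+LINE-1, shControl and shLINE_Orf2, and shLINE_MdV_I highest, but over a narrower span, from 158 to 197 CPM in Sox8 and from 28.3 to 32.2 CPM in Nkx2-2. Those of Olig1, Olig2 and Mbp had other orders. Olig2 (plus strand, chr16:91225457-91228677), which is required for the lineage to form, had 747, 668 and 857 CPM in shControl, 505, 936 and 819 in shLINE_Orf1 and 820, 863 and 842 in shLINE_Orf1+LINE-1. It had 851, 839 and 802 CPM in shLINE_Orf2 and 875, 880 and 755 in shLINE_MdV_I. The shLINE_Orf1 group held both its lowest and its highest library.

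Olig1, its neighbour on chromosome 16 (plus strand, chr16:91269772-91271933), had 2025, 2429 and 2416 CPM in shControl, 1528, 2478 and 2186 in shLINE_Orf1 and 2142, 2296 and 2278 in shLINE_Orf1+LINE-1. It had 2139, 2190 and 2131 CPM in shLINE_Orf2 and 2118, 2190 and 2056 in shLINE_MdV_I. Every pair of groups overlapped for both Olig genes, and again shLINE_Orf1 held the lowest and the highest library of Olig1.

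Sox8 (minus strand, chr17:25565892-25570686) had 187, 181 and 208 CPM in shControl, 111, 187 and 177 in shLINE_Orf1 and 181 to 209 over the 12 libraries of the other groups. Nkx2-2 (minus strand, chr2:147177546-147194243) had 30.4, 30.8 and 32.3 CPM in shControl, 22.0, 33.0 and 29.8 in shLINE_Orf1, and 29.1 to 33.5 in the 12 libraries of the other groups. In both genes shLINE_Orf1 replicate 1 alone lay well below the other 14 libraries. The adjusted p over the 5 groups was 0.864 for Olig2, 0.891 for Olig1, 0.575 for Sox8 and 0.784 for Nkx2-2 in edgeR's quasi-likelihood test. With the Orf1 hairpin against shControl, the 95% interval of the log2 fold change was -0.36 to 0.35 for Olig2, -0.44 to 0.14 for Olig1, -0.59 to 0.03 for Sox8 and -0.41 to 0.13 for Nkx2-2, so modest changes within these bounds cannot be told from none. Exonic bases of Sox8, Nkx2-2, Olig1 and Pdgfra overlap annotated genes on the opposite strand that have no row in the count table.

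Mbp (plus strand, chr18:82475146-82585637) had few counts, 48 to 127 per library, and 1.03 to 2.54 CPM with a median of 1.95. All groups overlapped, and the adjusted p over the 5 groups was 0.687 in edgeR's quasi-likelihood test. The locus also has an upstream start, known for the golli proteins that are made outside myelin. The 4 annotated transcripts from that start took 52.6% to 100% of the Mbp counts, with a median of 72.8%. The 12 transcripts from downstream starts, which include the classic myelin forms, had 0 to 46 counts per library with a median of 20.8. The upstream share was 79.6% ± 6.83 (SD, n = 3) in shControl, 75.4% ± 7.32 in shLINE_Orf1, 62.1% ± 9.30 in shLINE_Orf2, 71.9% ± 1.18 in shLINE_MdV_I and 82.0% ± 18.9 in shLINE_Orf1+LINE-1. The assignment of reads to transcripts that share exons is a model estimate, and these shares rest on few counts.

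**Figure D3:**
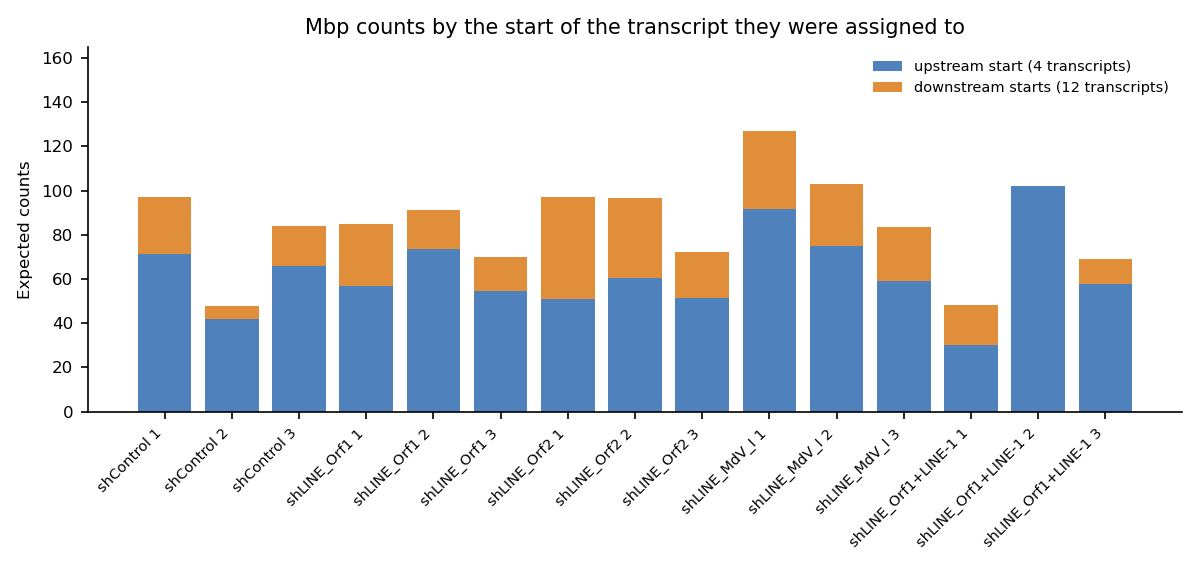
Expected counts of Mbp in each library (vertical axis), stacked by whether the transcript begins at the upstream start or at a downstream start. The upstream start holds most counts in every library, and the downstream starts hold 0 to 46.

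In shLINE_Orf1 against shControl, 0 of the 9 genes passed an adjusted p of 0.05, where 27 of 15139 genes (0.178%) did. By unadjusted p, 3 of the 9 were under 0.05 (10.5% of all genes): Pdgfra at -0.74 ± 0.24 on the log2 scale (adjusted p = 0.323 in edgeR's quasi-likelihood test), Gpr17 at -0.84 ± 0.29 (0.364) and Cspg4 at -0.59 ± 0.24 (0.427). Sox10 was at -0.42 ± 0.22. In Pdgfra and Gpr17 all shLINE_Orf1 libraries lay below all shControl libraries, 2 of 9 genes against 4.40% of all genes. DESeq2 also called 0 of the 9, with 215 of 15139 genes called, and limma-voom with quality weights called Pdgfra, Cspg4 and Gpr17 among 639. The median over the 9 genes was -0.28, and over all genes -0.01. Without the 2 libraries that stand apart the log2 fold changes were -0.61 for Pdgfra, -0.80 for Gpr17 and -0.44 for Cspg4, again with 0 of the 9 called, where 139 of 15404 genes were.

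The group with full-length LINE-1 shows whether the genes differ once the element is supplied beside the hairpin. Against shLINE_Orf1, shLINE_Orf1+LINE-1 gave a log2 fold change of 0.18 for Pdgfra (95% interval -0.33 to 0.69), 0.18 for Cspg4 (-0.33 to 0.69), -0.07 for Sox10 (-0.54 to 0.40) and 0.48 for Gpr17 (-0.13 to 1.1). A rise that would offset the difference between shLINE_Orf1 and shControl lay inside the interval of Cspg4 and Gpr17 and just above that of Pdgfra and Sox10, and a change of 0 lay inside all 4. edgeR's quasi-likelihood test called 0 of the 9 genes and 0 of 15139 (0%), with 0 of 9 and 1682 of 15139 (11.1%) at an unadjusted p under 0.05. DESeq2 and limma-voom each called 0 of the 9, and 20 and 399 of all genes. Sox8 alone was higher without overlap, 1 of 9 against 9.45% of all genes, and shLINE_Orf1 replicate 1 was its lowest library.

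Against shControl, shLINE_Orf1+LINE-1 gave -0.56 ± 0.24 for Pdgfra (adjusted p = 0.511, edgeR's quasi-likelihood test), -0.49 ± 0.22 for Sox10 (0.537) and -0.41 ± 0.24 for Cspg4 (0.689). No gene of the 9 was called, where 21 of 15139 (0.139%) were, and 2 of 9 had an unadjusted p under 0.05 (8.77% of all genes). Pdgfra and Sox10 lay below shControl without overlap, 2 of 9 against 7.27% of all genes. DESeq2 called 0 of the 9 among 209 genes, while limma-voom called Pdgfra and Cspg4 among 544. Without the 2 libraries that stand apart edgeR called both as well, Pdgfra at -0.69 and Cspg4 at -0.55, each with an adjusted p of 0.0352, where 354 of 15404 genes were called. This comparison and the one before it share libraries with the comparison of shLINE_Orf1 and shControl, so their values are not independent.

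With the Orf2 and MdV_I hairpins, log2 fold changes of Pdgfra, Sox10 and Gpr17 against shControl were positive and none was called. In shLINE_Orf2, Sox10 was at 0.60 ± 0.21 (adjusted p = 0.473 in edgeR's quasi-likelihood test) and Pdgfra at 0.30 ± 0.23, and 0 of 9 genes were called, where 29 of 15139 (0.192%) were. In shLINE_MdV_I against shControl, Gpr17 was at 0.82 ± 0.27 (adjusted p = 0.3), Sox10 at 0.60 ± 0.21 (0.366) and Pdgfra at 0.43 ± 0.23 (0.680), and 0 of 9 were called, where 90 of 15139 (0.594%) were. At an unadjusted p under 0.05 stood 1 of 9 with the Orf2 hairpin (1059 of all genes, 7%) and 2 of 9 with the MdV_I hairpin (8.63%), and DESeq2 and limma-voom called 0 of the 9 in both, among 175 and 383 genes with the Orf2 hairpin and 306 and 392 with the MdV_I hairpin. Sox10 lay above shControl without overlap with either hairpin, and Gpr17 with the MdV_I hairpin, which makes 1 of 9 against 6.92% and 2 of 9 against 8.22% of all genes. With the description number as a covariate, Pdgfra was called in shLINE_MdV_I against shControl, at 0.92 (adjusted p = 0.0335 in edgeR's quasi-likelihood test), where 167 of 15139 genes were. That number is 12 in shLINE_MdV_I replicates 2 and 3 and in the outlying shLINE_Orf1 replicate 1. In shLINE_MdV_I against shControl astrocyte Apoe (-1.16 ± 0.19, adjusted p = 0.00790) and Sparcl1 (-0.90 ± 0.11, 0.000874) were also called lower and neuronal Snap25 (0.83 ± 0.15, 0.0182) higher in edgeR's quasi-likelihood test. Astrocyte markers summed to 3391 to 4071 CPM in shControl and 3151 to 3358 in shLINE_MdV_I, and neuronal markers to 810 to 873 and 800 to 861, and their part in the members' values was not tested.

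**Figure D4:**
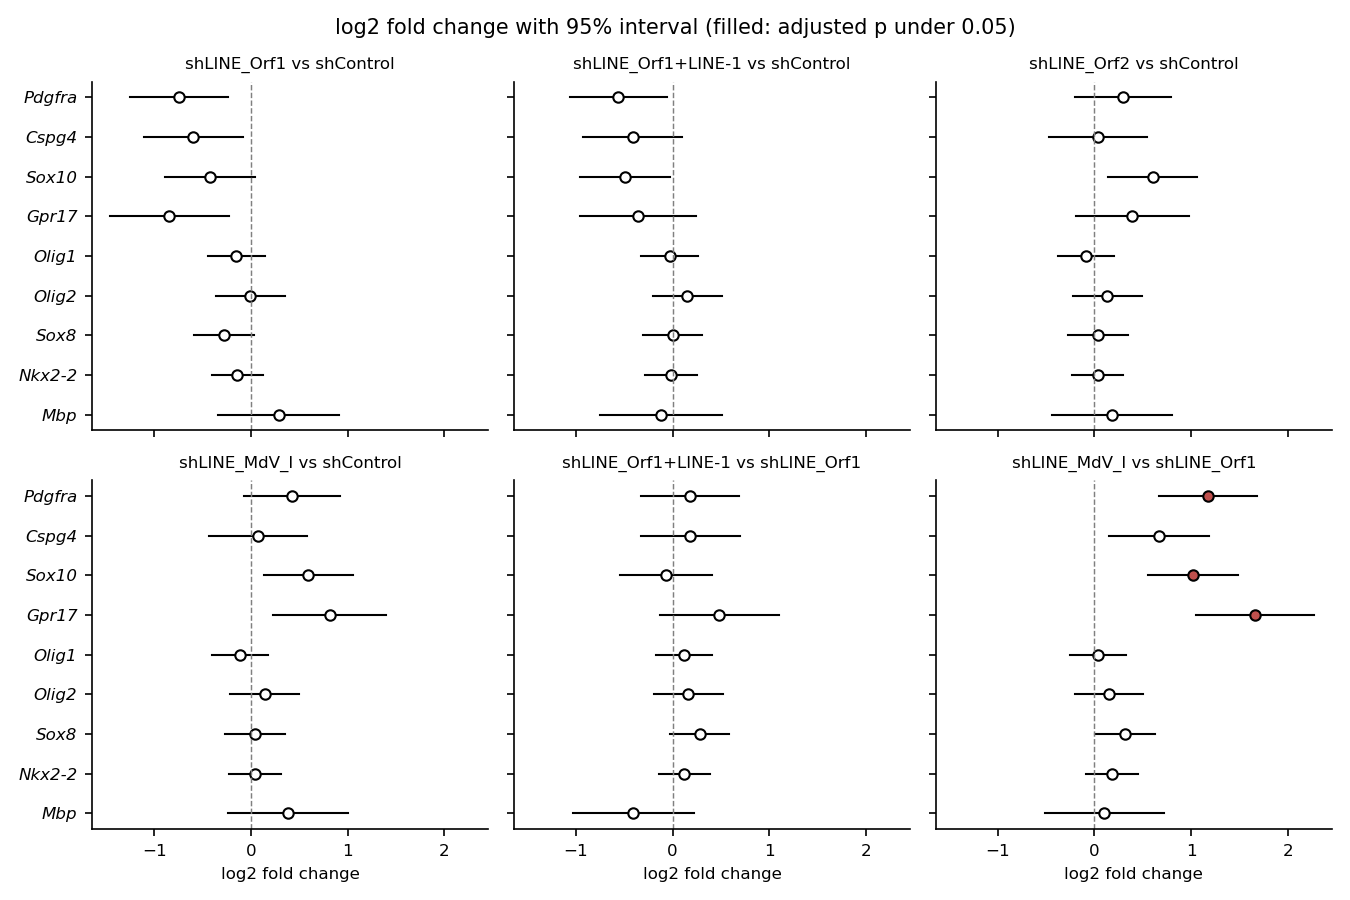
log2 fold change of each gene (horizontal axes) with its 95% interval in 6 comparisons, filled where the adjusted p is under 0.05. Filled points are Pdgfra, Sox10 and Gpr17 in shLINE_MdV_I against shLINE_Orf1, at 1.17, 1.02 and 1.66.

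Genes of the 9 were called in 2 of the 10 pairs of groups, both between hairpins. Between shLINE_MdV_I and shLINE_Orf1, 3 of 9 genes were called, all higher with the MdV_I hairpin, against 104 of 15139 genes (0.687%), of which 38 (0.251%) were higher. Gpr17 was at 1.66 ± 0.29 on the log2 scale (adjusted p = 0.0164 in edgeR's quasi-likelihood test), a ratio of 3.16. Pdgfra had 1.17 ± 0.24 (0.0376), a ratio of 2.25, and Sox10 had 1.02 ± 0.22 (0.0477), a ratio of 2.02. Cspg4 was at 0.67 ± 0.24 (adjusted p = 0.235) and was not called. All shLINE_MdV_I libraries lay above all shLINE_Orf1 libraries in 5 of 9 genes, against 9.56% of all genes. An unadjusted p under 0.05 was found for 5 of 9 against 16.4%, and the median was 0.32 over the 9 genes and -0.00 over all genes.

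Those calls depend on single libraries. Gpr17 lost its call without shLINE_MdV_I replicate 1 (adjusted p = 0.110) or replicate 2 (0.0642) and was called in the 13 other fits with 1 library left out. Pdgfra was called in 6 of 15 such fits (adjusted p 0.0330 to 0.219), those without shControl replicate 2 or 3, any shLINE_Orf1 replicate or shLINE_MdV_I replicate 3. Sox10 was called in 2 of 15 (0.0123 to 0.242), those without shLINE_Orf1 replicate 2 or shLINE_MdV_I replicate 3. Fitted on the 6 libraries of these groups alone, 0 of the 9 and 0 of 14448 genes were called. DESeq2 called 3 of the 9 among 434 genes and limma-voom 4 among 1692. Without the 2 libraries that stand apart Gpr17 (1.51, adjusted p = 0.0190) and Pdgfra (0.91, 0.0109) were called and Sox10 (0.89, 0.0731) was not, where 159 of 15404 genes were called. With the description number as a covariate, which differs between libraries of both groups, Gpr17 was at 1.81, Pdgfra at 1.47, Sox10 at 1.16 and Cspg4 at 1.0, and 5 of 9 were called, Sox8 being the fifth, where 2062 of 15139 genes were. In shLINE_Orf1 only replicate 1, which stands apart, carries the number 12, so within that group the number and that library cannot be told apart. Astrocyte markers moved beside these genes: their sum was 3151 to 3358 CPM in shLINE_MdV_I and 3569 to 4456 in shLINE_Orf1, and Apoe (-1.17 ± 0.19, adjusted p = 0.0106) and Sparcl1 (-0.64 ± 0.11, 0.0126) were called lower with the MdV_I hairpin. Neuronal markers summed to 800 to 861 and 750 to 864 CPM, and Neurod1 (2.22 ± 0.47, adjusted p = 0.0436), at a mean of 0.489 CPM over all libraries, was called higher. The part of these in the result was not tested.

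Sox10 also separated shLINE_Orf1+LINE-1 from shLINE_MdV_I, at -1.09 ± 0.22 (adjusted p = 0.0289, edgeR's quasi-likelihood test), 2.12-fold lower, and was the 1 of 9 genes called there, where 103 of 15139 (0.680%) were, 42 of them lower (0.277%). It was called in 10 of 15 fits with 1 library left out and lost without shLINE_MdV_I replicate 1 or 2 or any shLINE_Orf1+LINE-1 replicate (adjusted p up to 0.165). Gpr17 at -1.18 ± 0.28 (0.0744) and Pdgfra at -0.99 ± 0.24 (0.0754) did not pass. In 4 of 9 genes all shLINE_Orf1+LINE-1 libraries lay below all shLINE_MdV_I libraries, against 13.5% of all genes, and 3 of 9 had an unadjusted p under 0.05, against 8.49%. Without the 2 libraries that stand apart Pdgfra (adjusted p = 0.000896), Sox10 (0.00475), Gpr17 (0.0151) and Cspg4 (0.0273) were all lower in shLINE_Orf1+LINE-1, at log2 fold changes of -0.99, -1.08, -1.17 and -0.48, where 575 of 15404 genes were called. Neither of those libraries belongs to the groups compared: leaving them out changed the estimate of the spread and the genes tested, not the libraries compared. Scores on the first principal component were -10.6, -8.78 and -2.56 in shLINE_Orf1+LINE-1 and -18.9, -15.2 and -2.59 in shLINE_MdV_I. Replicates 1 and 2 of shLINE_MdV_I scored lowest of all libraries. Sox10 within shLINE_MdV_I fell as the score rose, at 8.41, 7.12 and 5.34 CPM in replicates 1 to 3. The part of this component in the result was not tested. Astrocyte markers summed to 3713 to 3930 CPM in shLINE_Orf1+LINE-1, above the 3151 to 3358 of shLINE_MdV_I, and Sparcl1 was called higher (0.63 ± 0.11, adjusted p = 0.0116). Their part in the result was not tested.

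No gene of the 9 was called in comparisons with shLINE_Orf2. In shLINE_Orf1+LINE-1 Sox10 was at -1.09 ± 0.22 (adjusted p = 0.0533, edgeR's quasi-likelihood test), Pdgfra at -0.86 ± 0.24 (0.175), Gpr17 at -0.75 ± 0.28 (0.385) and Cspg4 at -0.45 ± 0.24 (0.637), and 0 of 9 were called, where 36 of 15139 (0.238%) were. Here 3 of 9 had an unadjusted p under 0.05 (1363 of all genes, 9%), and 4 of 9 were lower without overlap (1968 of all genes, 13%). DESeq2 called Pdgfra and Sox10 among 268 genes, and limma-voom called all 4 among 1549. In shLINE_Orf2 against shLINE_Orf1, Gpr17 was at 1.24 ± 0.29 (adjusted p = 0.149), Pdgfra at 1.04 ± 0.24 (0.145) and Sox10 at 1.02 ± 0.22 (0.134). edgeR called 0 of 9 and 0 of 15139 genes (0%), with 5 of 9 and 11.4% of all genes under an unadjusted p of 0.05 and 4 of 9 higher without overlap (7.90% of all genes), while DESeq2 called these 3 among 130 genes and limma-voom these and Cspg4 among 833. Between shLINE_MdV_I and shLINE_Orf2, 0 of 9 were called, where 17 of 15139 (0.112%) were, and 0 of 9 had an unadjusted p under 0.05 (5.44% of all genes). Gpr17 was higher there without overlap, 1 of 9 against 8.95%. In this pair Sox10 was at -0.01 (95% interval -0.46 to 0.44), Pdgfra at 0.13 (-0.36 to 0.63) and Gpr17 at 0.43 (-0.15 to 1.0), and DESeq2 and limma-voom called 0 of the 9, among 119 and 521 genes.

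**Figure D5:**
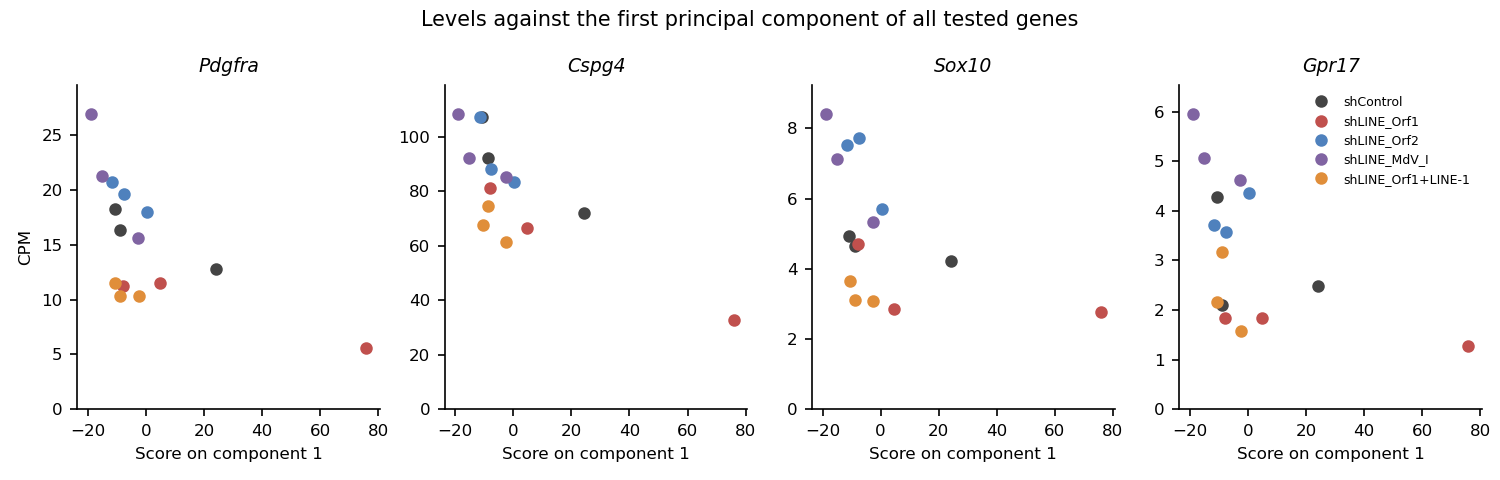
Level of Pdgfra, Cspg4, Sox10 and Gpr17 in CPM (vertical axes) against the score of each library on the first principal component of all genes tested (horizontal axes), with 1 point per library coloured by group. shLINE_Orf1 replicate 1 scores 75.9 and the shLINE_Orf1+LINE-1 libraries, low for Pdgfra and Sox10, score -10.6 to -2.56. The shLINE_MdV_I libraries score -18.9 to -2.59, and within that group each of these genes is lower where the score is higher.

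Pdgfra, Cspg4, Sox10 and Gpr17 varied together over the 15 libraries, a description in which libraries of a group share their hairpin. Pearson's r of log2 CPM was 0.92 for Pdgfra with Cspg4, 0.90 for Pdgfra with Sox10 and 0.86 for Pdgfra with Gpr17, and 0.87, 0.92 and 0.82 without shLINE_Orf1 replicate 1. It was 0.76 for Cspg4 with Sox10, 0.77 for Cspg4 with Gpr17 and 0.80 for Sox10 with Gpr17, and 0.82, 0.74 and 0.76 without that library. Cspg4 reached 0.87 with Sox8 and 0.85 with Nkx2-2, so over all 15 libraries these genes were not set apart, and 0.56 and 0.50 without that library. For Olig1 with Olig2 it was 0.77 with that library and 0.18 without it, so that relation rested on 1 library. Among 9547 genes whose mean log2 CPM was 3 or more, those most like Pdgfra were Dll1 (r = 0.94), a Notch ligand, Sox6 (0.93), a precursor transcription factor, and Ets1 (0.92). Those most like Sox10 were Gramd1a (0.91), Pdgfra itself (0.90) and Ak4 (0.90), and those most like Gpr17 were Dll1 (0.93), Sharpin (0.91) and Evl (0.90). For Cspg4 they were Lpin1, Setd5 and Chd7 (each 0.96).

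Other genes of the lineage were read from 5 lists of 144 genes, of which 128 passed the filter on low counts. Over the 5 groups 4 of the 128 (3.12%) were called, against 0.945% of all genes: C1ql1 and Pcdh15, both expressed by precursors, Sox6, and Cryab, a small heat shock protein that mature oligodendrocytes also make. Pcdh15 had 4.69 ± 0.342 CPM in shControl, 3.42 ± 0.341 in shLINE_Orf1, 6.05 ± 1.05 in shLINE_Orf2, 7.05 ± 1.09 in shLINE_MdV_I and 3.95 ± 0.396 in shLINE_Orf1+LINE-1 (SD, n = 3). Sox6 had 54.1 ± 5.19, 44.5 ± 5.0, 67.8 ± 1.14, 64.3 ± 4.82 and 50.2 ± 1.40 CPM in the same order of groups. Like Pdgfra, both had their lowest means in the groups with the Orf1 hairpin. Sums over whole lists differed in direction between shLINE_Orf1 and shLINE_MdV_I. Precursor genes summed to 7394 to 10169 CPM and 6610 to 7132, and myelin and mature genes to 1256 to 1324 and 1037 to 1125. Committed and newly formed oligodendrocyte genes summed to 1107 to 1406 and 1448 to 1528, and transcription regulators to 2841 to 3304 and 3485 to 3566. The sums of receptors and signalling genes overlapped. Sums weigh abundant genes most, and Fabp7 was the most abundant precursor gene. Gene by gene, 18 of 23 precursor genes tested were higher in shLINE_MdV_I than in shLINE_Orf1 (median log2 fold change 0.13), opposite to their sum. Of myelin and mature genes 9 of 28 were higher (-0.12), of committed genes 15 of 18 (0.18), of transcription regulators 20 of 29 (0.26) and of receptors 25 of 30 (0.23).

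In shLINE_MdV_I against shLINE_Orf1, 6 of 128 lineage genes (4.69%) were called, against 0.687% of all genes. Pcdh15 (1.04 ± 0.17, adjusted p = 0.0115, edgeR's quasi-likelihood test), Dll1 (0.82 ± 0.16, 0.0277), Sox6 (0.53 ± 0.10, 0.0290) and Lims2 (1.26 ± 0.27, 0.0444) were higher, and Cryab (-0.94 ± 0.11, 0.00448) and Plekhb1 (-0.48 ± 0.10, 0.0436), which mature oligodendrocytes express, were lower. In shLINE_Orf1+LINE-1 against shLINE_MdV_I, C1ql1 (-0.94 ± 0.17, adjusted p = 0.0200, edgeR's quasi-likelihood test) and Pcdh15 (-0.83 ± 0.17, 0.0280) were lower and Cryab (0.82 ± 0.11, 0.00324) was higher. These were 3 of 128 (2.34%), against 0.680% of all genes. Each of the 4 comparisons with shControl called Cryab alone, and higher, which is 1 of 128 (0.781%) against 0.139% to 0.594% of all genes. Its level was 19.7 ± 1.22 CPM in shControl, 60.7 ± 8.29 in shLINE_Orf1, 38.4 ± 2.08 in shLINE_Orf2, 31.6 ± 3.27 in shLINE_MdV_I and 55.9 ± 1.60 in shLINE_Orf1+LINE-1 (SD, n = 3). The median log2 fold change of the 128 genes was -0.18 in shLINE_Orf1 against shControl, where it was -0.01 over all genes, and 0.15, 0.14 and 0.12 in shLINE_MdV_I, shLINE_Orf1+LINE-1 and shLINE_Orf2 against shLINE_Orf1, comparisons that all hold shLINE_Orf1 replicate 1. It lay between -0.04 and 0.05 in the other 6 pairs, and no lineage gene was called in the pairs of shLINE_Orf1 with shLINE_Orf2 or shLINE_Orf1+LINE-1, or of shLINE_Orf2 with shLINE_MdV_I or shLINE_Orf1+LINE-1. In the same order, 0, 0, 17 and 36 of all 15139 genes were called in those pairs.

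Many genes of mature oligodendrocytes had few counts. Of 35 myelin and mature genes, 17 had a mean under 1 CPM, among them Mog, a myelin surface protein, at 0.00925 CPM and Mag, a myelin adhesion protein, at 0.0658 CPM. Cnp, an enzyme of myelin that other cells also make, stood at 108 CPM. The most abundant of that list were Trf (452 CPM), Car2 (240 CPM) and Qdpr (167 CPM), none of them called over the 5 groups. Myrf, which drives myelin gene transcription, had 2.73 CPM and Bcas1, a marker of newly formed oligodendrocytes, had 17.9 CPM. Among precursor genes, Fabp7 (3776 CPM), Ptprz1 (875 CPM) and Bcan (535 CPM) were the most abundant, and these are also made by other progenitors and astrocytes.

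The 250 bases upstream of 2 members are shown because these genes differ in how they behaved: Pdgfra varied between hairpins, while Sox8 varied little outside 1 library. Sequences are from RefSeq (GRCm38.p6), read 5′ to 3′ on the strand of the gene, and run over chr5:75152001-75152250 (plus strand) and chr17:25570687-25570936 (minus strand). Capitals mark matches to the E-box CANNTG, the short motif that helix-loop-helix factors such as Olig1 and Olig2 bind, and which reads the same on both strands.
Pdgfra: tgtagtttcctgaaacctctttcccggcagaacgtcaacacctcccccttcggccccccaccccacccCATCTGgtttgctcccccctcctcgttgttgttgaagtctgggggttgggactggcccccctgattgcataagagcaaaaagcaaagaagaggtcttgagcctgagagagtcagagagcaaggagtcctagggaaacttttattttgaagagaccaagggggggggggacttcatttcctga
Sox8: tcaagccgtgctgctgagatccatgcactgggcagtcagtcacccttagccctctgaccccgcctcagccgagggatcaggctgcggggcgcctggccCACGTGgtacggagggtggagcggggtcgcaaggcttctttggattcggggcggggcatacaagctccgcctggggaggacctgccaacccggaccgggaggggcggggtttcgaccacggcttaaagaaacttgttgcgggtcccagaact
Each window held 1 match, and 66.2% of 32851 mouse promoter windows of that length held at least 1, so a match is a common feature and says nothing about binding. GC content was 54.4% for Pdgfra and 65.6% for Sox8, against a median of 52.4% over all windows.

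A gene table that the authors deposited gives a model estimate per gene, and its name refers to an effect of young elements, without naming a scale. All 9 genes are among its 17921 genes. None of the 9 had, in the authors' deposited table, an unadjusted p under 0.05, where 477 genes did, and the adjusted p was 1 for each. The p-values in the authors' deposited table ran from 0.234 for Olig1 to 0.944 for Sox10, and 7 of the 9 estimates were positive.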

How the data were processed

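RNA-seq of 15 mouse libraries in 5 groups of 3 was used. The authors deposited expected counts per transcript. RSEM, cutadapt and the mm10 build are named, without role or order, per the submitters' processing notes, and versions, settings and annotation were not given in the sources used here. The authors also deposited a gene table with an estimate, standard error, t score and p-values. Transcript identifiers were matched, without version, to GENCODE M21 (GRCm38): 110203 of 111462 matched, the others held 0.583% to 0.637% of counts, and 1 blank row was dropped. Counts were summed per gene and rounded.

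Genes were tested with edgeR 4.0.16: filterByExpr with a minimum count of 10, TMM factors (0.853 to 1.04), 1 quasi-likelihood model of all 15 libraries (common coefficient of variation 0.158) and Benjamini-Hochberg adjustment over 15139 genes, called under 0.05. SE is the log2 fold change divided by the root of F. The procedure was tested on simulated counts with the same spread for all genes and no outlying library. That test does not cover outlying libraries such as those found here. CPM uses TMM-scaled library sizes, log2 CPM a prior count of 2. Levels between genes are counts per kilobase of transcript, scaled to TPM.

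The members and lists were chosen with earlier results of these data known. Named are the 9 members, lineage genes called in a comparison or the 3 most abundant and 2 of smallest p per list, the 3 most abundant markers per cell type as far as they bear on a result, and the 3 genes most like a member by Pearson's r. Alternatives were other scaling (RLE, none), no or a stricter filter, DESeq2 1.42.0, limma-voom 3.58.1 with quality weights, a replicate block, the description number as covariate, only the compared groups, each library left out, both outlying libraries left out, and pooled transcript shares.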

Additional observations from a re-analysis of the deposited data

How the results depend on the processing

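The number of the 9 genes called over the 5 groups (2) was 0 with no scaling factor, 4 with limma-voom, 4 with the description number as covariate, 4 without the 2 libraries that stand apart, and 0 to 3 when each library was left out. It was 0 without shLINE_Orf1 replicate 3, shLINE_Orf2 replicate 1 or 2, shLINE_MdV_I replicate 1 or 2, or shLINE_Orf1+LINE-1 replicate 1 or 3, and 1 without shLINE_Orf2 replicate 3 or shLINE_Orf1+LINE-1 replicate 2. In shLINE_MdV_I against shLINE_Orf1 (3) it was 1 with no scaling factor, 5 with the covariate, 0 with only the compared groups, and 0 to 3 with 1 library left out. In shLINE_Orf1+LINE-1 against shLINE_MdV_I (1) it was 0 with no scaling factor, 2 with no filter, 3 with DESeq2, 4 with limma-voom, 2 with the covariate, 4 with only the compared groups, 4 without the 2 libraries, and 0 to 3 with 1 left out, the 3 being without shLINE_Orf1 replicate 1. From 0, shLINE_Orf1+LINE-1 against shLINE_Orf2 went to 1 with RLE factors, 1 with no filter, 2 with DESeq2, 4 with limma-voom, 2 with the covariate, 3 with only the compared groups, 3 without the 2 libraries, and 0 to 2 with 1 left out, the 2 being without shLINE_Orf1 replicate 1. From 0, shLINE_Orf2 against shLINE_Orf1 went to 3 with DESeq2, 4 with limma-voom and 0 to 1 with 1 left out, the 1 being Sox10 without shLINE_Orf1 replicate 2. Also from 0, shLINE_Orf1 against shControl went to 3 with limma-voom, shLINE_MdV_I against shControl to 1 with the covariate, and shLINE_Orf1+LINE-1 against shControl to 2 with limma-voom and 2 without the 2 libraries. Of 128 lineage genes 4 were called over the 5 groups, 18 with DESeq2, 35 with limma-voom, 7 with the covariate, 26 without the 2 libraries (among 143, 914, 1546, 288 and 928 of all genes), and 1 to 11 with 1 left out (11 without shLINE_Orf1 replicate 1). The causes were not tested.

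Gpr17 in shLINE_MdV_I against shLINE_Orf1 was called in 22 of 25 alternatives (adjusted p 5.92e-06 to 0.124), Pdgfra in 13 and Sox10 in 8, and Sox10 in shLINE_Orf1+LINE-1 against shLINE_MdV_I in 19, each with its sign kept in all 25. Pooled counts in place of mean shares moved the Mbp upstream share by less than 1 SD in every group. Counts of Sox10, Gpr17 and Mbp were at most 421, 298 and 127 per library, which limits their precision.

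No pairing of libraries by replicate number was seen: deviations of same-numbered libraries correlated at -0.271 to 0.183 (30 pairs), and 1 of 15 libraries correlated best with its own number. With 3 libraries per group this cannot exclude a pairing. With a replicate block, 0 genes of the 9 were called over the 5 groups, 1 in shLINE_MdV_I against shLINE_Orf1 (Gpr17), 1 in shLINE_Orf1+LINE-1 against shLINE_MdV_I (Sox10), and 2 of the 128 lineage genes over the 5 groups.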
